A study of Danio rerio with 18 samples.

Results

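The comparison set regenerating caudal fin of TCDD-exposed zebrafish against that of vehicle-exposed zebrafish at 1 day post amputation (dpa). It took every array that the labels place at 1 dpa, 3 from TCDD-exposed and 3 from vehicle-exposed fish, which are 6 of the 18 arrays of the series. TCDD (2,3,7,8-tetrachlorodibenzo-p-dioxin) was given at 50 ng per g of fish in phosphatidylcholine liposomes, and the vehicle group received the liposomes alone. All fish were adult males of the AB strain, amputated where the fin rays branch and injected on the day of amputation. Each array carried RNA pooled from 10 fish, so that the spread between arrays is the spread between pools. The other 12 arrays hold the same exposures at 3 and 5 dpa and entered the fit to estimate that spread. The tissue taken included up to a pair of ray segments of old fin below the plane of amputation, per the labels' protocols.

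TCDD binds the aryl hydrocarbon receptor (AHR), a transcription factor that moves to the nucleus, pairs with Arnt and switches on a battery of genes led by cytochromes P450 of family 1. An amputated zebrafish fin first closes the wound with epidermis, then gathers a blastema of proliferating mesenchymal cells below it, and later rebuilds bone, matrix, vessels and nerves. Exposure to TCDD is known to block this regrowth. At 1 dpa the wound is covered and the blastema is beginning to form.

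Levels are given as log2(intensity + 1) of the deposited GCRMA values, differences are TCDD minus vehicle on that scale, and errors after ± are standard errors of limma's fit unless SD is named. A probe set is said to have risen or fallen where its limma p, adjusted over 15502 probe sets by the method of Benjamini and Hochberg, was under 0.05. Replicates keep the letters of the labels, which are A, B and D for the TCDD arrays and B, D and E for the vehicle arrays.

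Letters B and D occur in both groups, and at 1 dpa the arrays were more alike by letter than by exposure. Over the 7751 brighter probe sets, Pearson's r between levels was 0.979 for TCDD B with vehicle B and 0.971 for TCDD D with vehicle D. Within the TCDD group it was 0.954 to 0.960, and within the vehicle group 0.924 to 0.959. A control for RNA integrity moved with the letter too. The 3' probe set of the GAPDH control exceeded its 5' probe set by 2.29, 2.95 and 1.50 log2 units on TCDD arrays A, B and D, and by 3.03, 1.52 and 1.64 on vehicle arrays B, D and E. What the letters mark is not stated in the labels. A second fit took the letter as a replicate block, with 1 term per letter shared by all days. It is given beside the first where it changes a call. In the blocked fit, letter E occurs on 1 array of the series, so that vehicle array E adds nothing to the estimate of the TCDD effect.

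**Figure D1:**
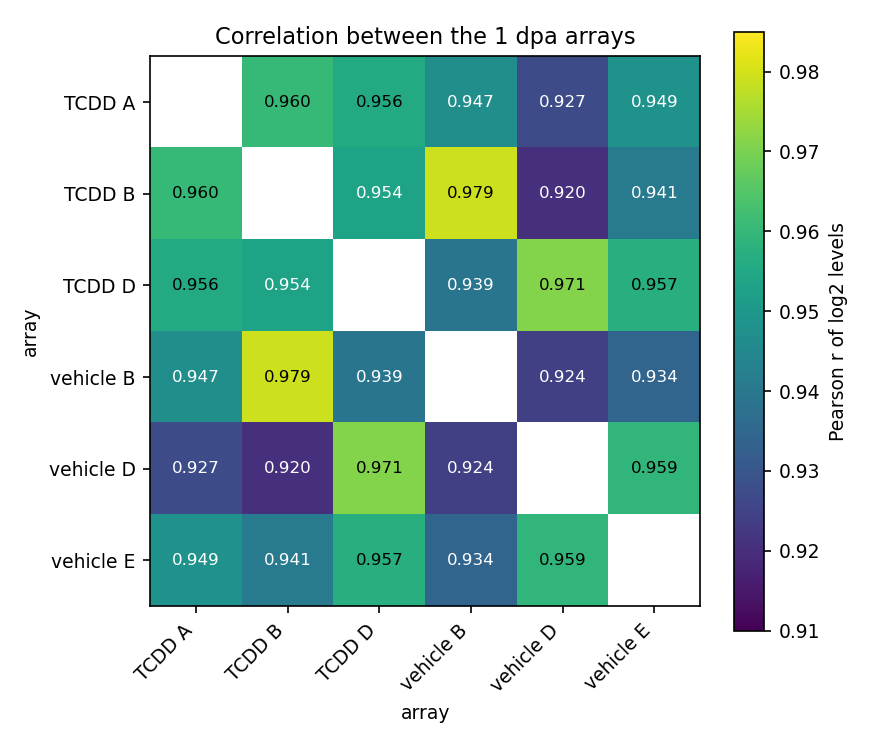
Pearson correlation of log2 levels between the 6 arrays of 1 dpa over the 7751 brighter probe sets, with arrays on both axes and r in each cell. The highest cells are the pairs that share a letter, 0.979 for B and 0.971 for D, and not the pairs that share an exposure.

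Few probe sets passed for TCDD against vehicle at 1 dpa. Of 15502 probe sets, 38 passed (0.245%), of which 25 rose (0.161%) and 13 fell (0.0839%). The balance of directions turned round with the replicate block, under which 17 rose and 28 fell, or 26 and 43 with the block on the 6 arrays of 1 dpa alone. In the latter fit letters A and E occur on single arrays, so the effect rests on the pairs of letters B and D. The leading rises were cyp1a and cyp1c1, and the leading falls were sox9b and hapln1a. In 16 of the 25 rises and 9 of the 13 falls the difference passed 1 log2 unit. The rises included 18 probe sets with a gene name, and the falls included 9. Data were simulated with each probe set's spread but independent noise on every array, so without the deviations that arrays of 1 letter share. Changes were placed on 200 probe sets with a mean level of 5 or more. At 1 dpa 54.5% of changes of 1 log2 unit, 93% of changes of 2 and 98.5% of changes of 3 were recovered. The false calls beside them numbered 10, 6 and 13. Many smaller changes would have been missed even there, and recovery with noise shared by letter or on dimmer probe sets was not tested. At an unadjusted p under 0.05, 868 probe sets were higher with TCDD (5.6%) and 374 lower (2.41%). With only the 6 arrays of 1 dpa in the fit no probe set passed, although 883 had an unadjusted p under 0.05. Left out in turn, vehicle array D brought the count to 11, vehicle array E to 15 and TCDD array A to 24, whereas without vehicle array B it was 98.

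**Figure D2:**
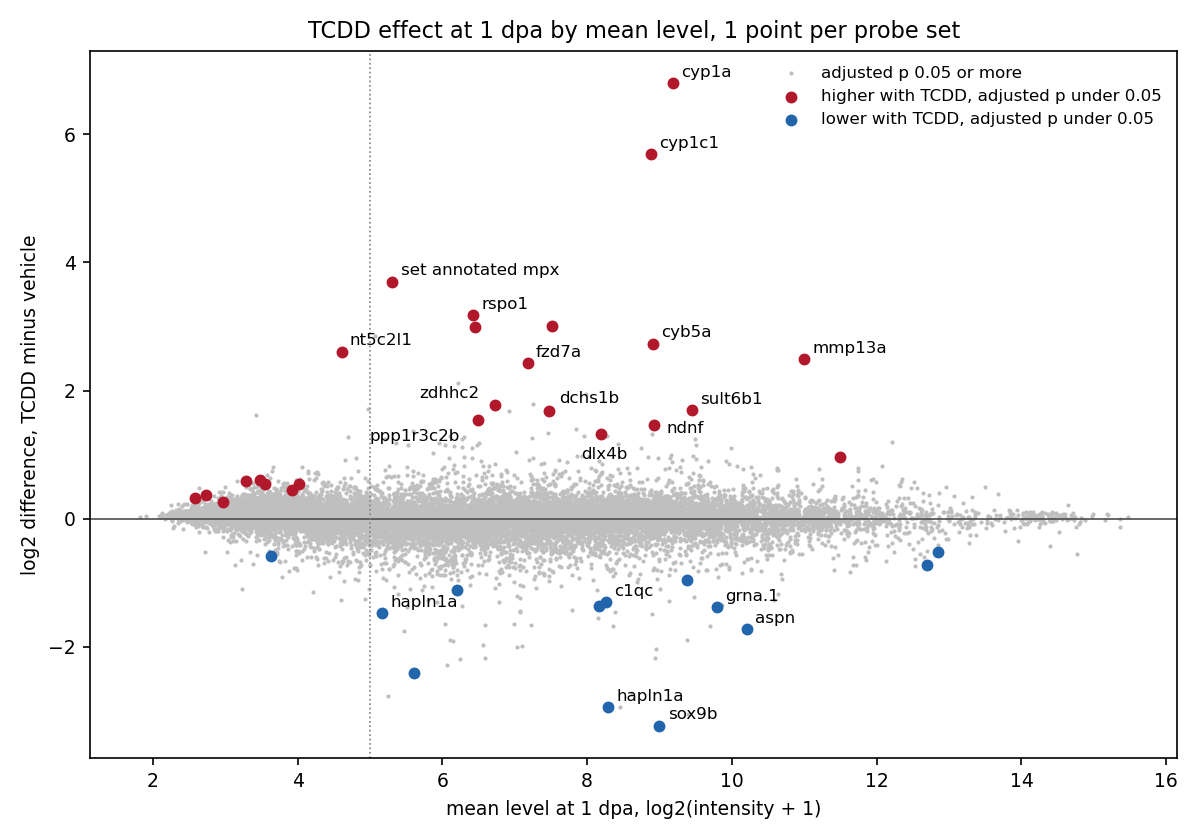
Difference at 1 dpa (TCDD minus vehicle, log2) against the mean level over the 6 arrays (log2(intensity + 1)), 1 point per probe set, with the 25 rises in red and the 13 falls in blue and the dotted line at a level of 5. The named rises reach 6.80 for cyp1a and the falls reach -3.23 for sox9b, while the red points left of the line are nt5c2l1 at 2.61 and 8 others with differences between 0.27 and 0.60.

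The AHR battery gave the largest rises. Of 6 measured AHR targets, 3 rose and none fell, beside 0.216% of all genes that rose, and the median difference of the 6 was 1.30 against 0.04 over all 8793 genes. The list was drawn up with results of these data known, so its count is a description. Without vehicle array E, or without both arrays of letter D, none of the 6 passed, while without vehicle array B 3 did. The largest of all was cyp1a, the cytochrome P450 used as the standard readout of AHR activation, with levels of 13.01, 12.67 and 12.07 on TCDD arrays A, B and D, against 8.68, 4.48 and 4.19 on vehicle arrays B, D and E. The groups did not overlap, but vehicle array B stood far above both of the other vehicle arrays. The difference was 6.80 ± 1.16 (limma adjusted p = 0.018), a fold of 111 that ran between 64.1 and 304 as single arrays were left out. Within letter B the difference was 3.99 and within letter D 7.59. Without TCDD array A or B or vehicle array D or E in turn, cyp1a no longer passed, with an adjusted p of up to 0.14.

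The related P450 cyp1c1 followed, at 11.80, 11.70 and 11.67 with TCDD and 7.57, 5.38 and 5.16 with vehicle. Its TCDD values were close to each other, and vehicle array B was again the highest of its group. The difference was 5.68 ± 0.86 (limma adjusted p = 0.0093), and the call was lost without vehicle array D or E (up to 0.081). Both other cyp1c1 probe sets were dimmer and did not pass, with differences of 2.86 (adjusted p = 0.30) and 0.31 (0.58).

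sult6b1, a sulfotransferase of phase II metabolism, had levels of 10.73, 10.14 and 10.02 with TCDD, against 8.92, 8.44 and 8.44 with vehicle. The vehicle arrays D and E were equal to 2 decimals, and B lay slightly above them. It rose by 1.70 ± 0.28 (limma adjusted p = 0.015), a call lost under the replicate block (0.072) and without TCDD array A or vehicle array D or E (up to 0.12). The other targets did not pass. tiparp, which encodes an ADP-ribosyltransferase that damps AHR signalling, had 10.13, 9.52 and 9.66 with TCDD and 9.41, 8.58 and 8.59 with vehicle, a difference of 0.91 ± 0.26 (adjusted p = 0.29). nqo1, a quinone reductase, differed by 0.27 (0.90), and cyp1d1 by 0.09 (0.88).

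A probe set annotated to the neutrophil peroxidase gene mpx was the second most significant probe set of the comparison, yet it did not move with the rest of its gene. It had levels of 7.68, 7.13 and 6.67 with TCDD, against 4.09, 3.12 and 3.17 with vehicle, a difference of 3.70 ± 0.37 (limma adjusted p = 0.00034). The 3 other mpx probe sets differed by -0.78, -0.41 and 0.13 (adjusted p = 0.84, 0.63 and 0.67). The identifier of the risen set, Dr.9478.2.S1_at, carries the same cluster number as that of the cyp1a set, Dr.9478.1.S1_at. The identifiers of the 3 other mpx sets carry that number too, so it does not set the risen one apart. Whether the risen set and the cyp1a set read 1 transcript was not tested, and no rise of mpx is reported. The difference of the risen set was 3.91 at 3 dpa and 3.80 at 5 dpa.

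None of the 8 measured genes of the AHR complex passed. The receptor ahr2 differed by 0.26 ± 0.14 (adjusted p = 0.69), its partner arnt2 by 0.22 (0.71), and the chaperone hsp90ab1 by -0.03 (0.94). Among 21 antioxidant and glutathione genes none passed either, and their median difference was -0.01. The closest was nfe2l2a, the master regulator of the antioxidant response, at 9.77, 9.68 and 9.12 with TCDD and 9.09, 8.49 and 8.63 with vehicle, a difference of 0.79 ± 0.21 (limma adjusted p = 0.22).

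Other enzymes rose with the battery. cyb5a, the cytochrome b5 that passes electrons to P450 enzymes, had 10.99, 10.19 and 9.64 with TCDD, against 7.55, 7.46 and 7.61 with vehicle. Its vehicle arrays were close to each other and TCDD array A was the highest. It rose by 2.73 ± 0.45 (limma adjusted p = 0.015), and fell short without TCDD array A or vehicle array D or E (up to 0.11). nt5c2l1, of the cytosolic 5'-nucleotidase family, had 6.09, 6.70 and 4.94 with TCDD and 3.60, 2.76 and 3.55 with vehicle, a rise of 2.61 ± 0.40 (0.0098). That call was lost without TCDD array A or vehicle array D (up to 0.082).

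The palmitoyltransferase gene zdhhc2 had 7.66, 7.55 and 7.63 with TCDD, against 6.47, 5.28 and 5.75 with vehicle, a rise of 1.78 ± 0.25 (limma adjusted p = 0.0066). It passed without any single one of the 18 arrays, but not with the block on the 6 arrays of 1 dpa alone. Nor did it pass without both arrays of letter D. ppp1r3c2b, a subunit that brings protein phosphatase 1 to glycogen, rose by 1.54 ± 0.26 (0.015), a call lost under the replicate block (0.097) and without TCDD array A or D or vehicle array D or E (up to 0.11).

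Within the Wnt pathway an amplifier and a receptor rose. Wnt ligands signal through Frizzled receptors, and R-spondins strengthen the signal by keeping those receptors at the cell surface. Of 28 measured Wnt genes 2 rose and none fell, beside 0.216% and 0.0796% of all genes, and the median difference over the list was 0.09, near the 0.04 of all genes. Without vehicle array E 1 of the 28 rose. The R-spondin gene rspo1 had levels of 8.30, 8.13 and 7.62 on TCDD arrays, against 6.02, 4.09 and 4.40 on vehicle arrays. Vehicle array B again stood above the rest of its group. The rise was 3.18 ± 0.49 (limma adjusted p = 0.0098), a fold of 9.06, with 2.103 within letter B and 3.53 within letter D. It did not pass without TCDD array A or vehicle array D or E (up to 0.082).

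The Frizzled gene fzd7a had 8.93, 8.43 and 7.82 with TCDD, against 6.40, 5.23 and 6.27 with vehicle. It rose by 2.42 ± 0.33 (limma adjusted p = 0.0053), a fold of 5.36, and passed whichever of the 18 arrays was left out. The catenin gene ctnnb2, whose product carries the Wnt signal to the nucleus, was far brighter, at 12.83, 12.42 and 12.61 with TCDD and 12.01, 12.10 and 12.05 with vehicle. Its groups did not overlap either, as was so for 7.9% of all genes in the upward direction, but its difference of 0.57 ± 0.15 did not pass (adjusted p = 0.22). fzd9b differed by 0.94 ± 0.30 (0.38) and tcf7l1b, a transcription factor of the pathway, by -0.41 ± 0.16 (0.55).

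dchs1b, a large cadherin of planar cell polarity, had 8.46, 7.86 and 8.59 with TCDD and 6.95, 6.50 and 6.44 with vehicle. It rose by 1.67 ± 0.25 (limma adjusted p = 0.0079), short of the threshold under the replicate block (0.051) and without vehicle array D or E (up to 0.066). ndnf, which encodes a secreted factor with fibronectin type III domains, had 9.94, 9.54 and 9.51 with TCDD and 8.64, 7.88 and 8.08 with vehicle. It rose by 1.46 ± 0.18 (0.0034) and passed whichever array was left out. The homeobox gene dlx4b rose by 1.32 ± 0.25 (0.042), a call lost under the replicate block (0.19) and with 12 of the 18 arrays left out in turn (up to 0.23). The locus si:ch211-183d21.1 rose by 0.96 ± 0.17 (0.027), lost under the block (0.066) and without any of 5 of the 6 arrays of 1 dpa (up to 0.19).

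Other growth signals of the blastema showed no call. None of 16 Fgf genes, 26 genes of the Bmp, Tgf-beta and activin pathways or 32 blastema and patterning genes passed by its brightest probe set. Over all genes 0.216% rose and 0.0796% fell, and at such shares most lists of these sizes would hold no call. That applies to every list described here as without a call. The lists' median differences were 0.17, 0.02 and 0.16. The blastema list holds hapln1a, 2 dimmer sets of which fell and are described with the matrix genes. bmp2a, a bone morphogenetic protein, had 8.18, 7.13 and 8.31 with TCDD and 6.56, 7.10 and 6.18 with vehicle, a difference of 1.26 ± 0.33 (limma adjusted p = 0.22). The homeobox gene hoxc13a had 10.68, 10.66 and 10.56 with TCDD and 9.74, 9.84 and 10.23 with vehicle. Its difference of 0.70 ± 0.20 did not pass (0.28), but passed under the replicate block (0.046). msx3, a homeobox gene of the blastema, differed by 0.78 ± 0.21 (0.23), and the gap junction gene gja1b by -0.87 ± 0.22 (0.18).

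Among genes without a name in the annotation, the rises of Dr.5410.1.A1_at and Dr.13774.1.S1_at were near that of rspo1 in size. Dr.5410.1.A1_at rose by 3.00 ± 0.40 (limma adjusted p = 0.0044), whichever array was left out. Its call was lost without both arrays of letter D. Dr.13774.1.S1_at rose by 2.99 ± 0.47 (0.0098), a call lost without TCDD array A or vehicle array D or E (up to 0.082).

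**Figure D3:**
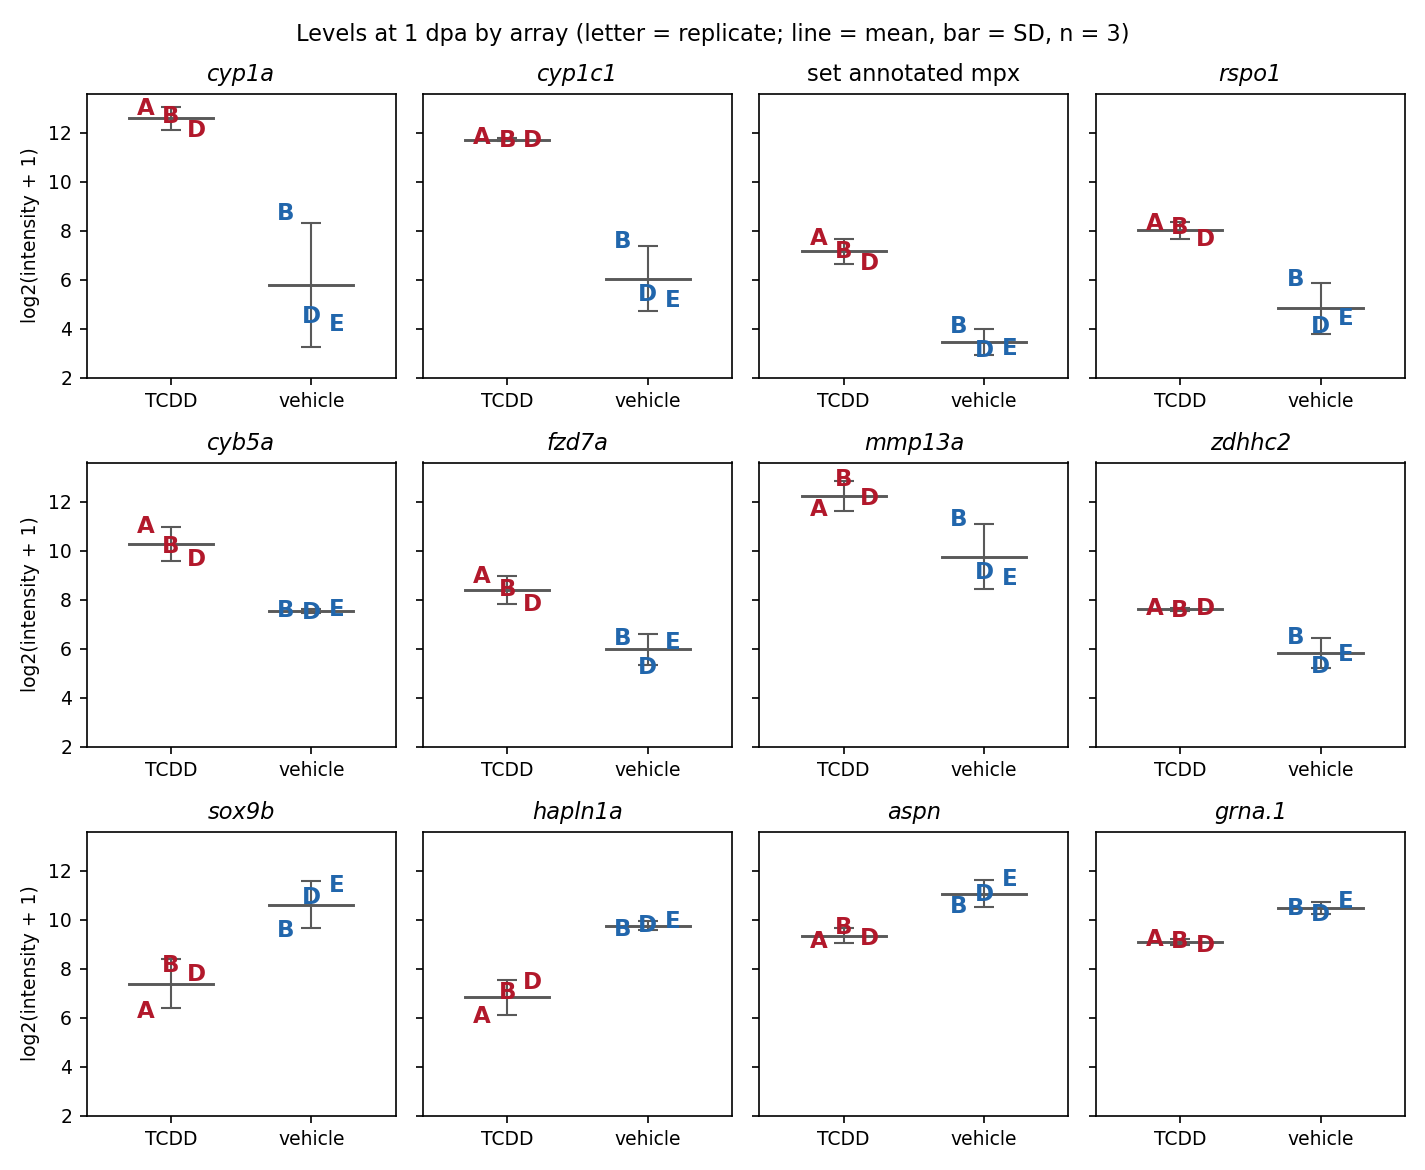
Levels at 1 dpa of 12 probe sets, log2(intensity + 1), with 1 letter per array, TCDD in red and vehicle in blue, and the mean and SD of 3 arrays; hapln1a is shown by the brighter of its called sets. Among the vehicle letters, B lies nearest to the TCDD arrays in every panel except those of cyb5a and grna.1.

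Vehicle array B lay nearest to the TCDD arrays across most of the rises. It was the highest vehicle array in 21 of the 25 risen probe sets, where 35.8% of all probe sets have it highest. Among the 13 that fell it was the lowest vehicle array in 5, where 35.5% of all probe sets have it lowest. Without it, 43 probe sets rose and 55 fell. What sets this array apart was not tested.

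The largest fall was that of sox9b, followed by a probe set of hapln1a and by the unnamed Dr.14133.1.A1_at. sox9b, a transcription factor of cartilage and other skeletal progenitors, had levels of 6.26, 8.14 and 7.76 on TCDD arrays A, B and D, against 9.55, 10.92 and 11.38 on vehicle arrays B, D and E. The groups did not overlap, with vehicle array B lowest in its group and TCDD array A lowest of all. It fell by 3.23 ± 0.55 on the log2 scale (limma adjusted p = 0.018), by 1.41 within letter B and by 3.15 within letter D. The call was lost under the replicate block (0.056) and without TCDD array A or vehicle array D or E (up to 0.13). In tissue RNA, fewer sox9b-expressing cells and less sox9b RNA per cell cannot be told apart, and the same holds for every gene below. Its second, dim probe set differed by -0.65 (0.37).

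hapln1a, which encodes a protein that links hyaluronan to proteoglycans, was measured by 6 probe sets, and 2 of them passed. The set Dr.20010.12.S1_at had 6.03, 7.03 and 7.42 with TCDD, against 9.59, 9.77 and 9.92 with vehicle, and fell by 2.94 ± 0.47 (limma adjusted p = 0.012). The call was lost without TCDD array A or vehicle array D or E (up to 0.082). The set Dr.20010.16.A1_at fell by 1.47 ± 0.21 (0.0068), whichever of the 18 arrays was left out. That call was lost without both arrays of letter B and without both of letter D. The other 4 sets were below 0 as well, at -2.94, -2.72, -0.67 and -0.10, with adjusted p of 0.058, 0.18, 0.42 and 0.91.

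The small proteoglycan gene aspn (asporin) had 9.11, 9.69 and 9.24 with TCDD, against 10.53, 11.01 and 11.66 with vehicle. It fell by 1.72 ± 0.22 (limma adjusted p = 0.0041) with every array left out in turn. The call was lost without both arrays of letter D, and the dimmer second set of aspn differed by -1.98 (0.32). sparc, the collagen-binding glycoprotein osteonectin and among the brightest genes of the list, had 12.28, 12.23 and 12.50 with TCDD and 12.74, 13.21 and 13.22 with vehicle. It fell by 0.72 ± 0.12 (0.015), a call lost without TCDD array A or B or vehicle array D or E (up to 0.13). col17a1b, a collagen of the hemidesmosomes that anchor basal epidermis, had 12.63, 12.54 and 12.60 with TCDD and 13.07, 13.21 and 13.07 with vehicle. It fell by 0.53 ± 0.10 (0.038), and 10 of the 18 arrays each ended the call when left out (adjusted p up to 0.23). Its second set differed by -0.62 (0.63). nt5dc2, predicted from its sequence to be a 5'-nucleotidase, fell by 0.95 ± 0.18 (0.039), a call that 12 of the 18 arrays each ended (up to 0.19).

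Structural matrix genes, each counted by its brightest probe set, numbered 35, of which 2 fell (aspn and sparc) and none rose, beside 0.0796% of all genes that fell. Like every list here, this list was drawn up with earlier results of these data known, so its counts are a description. hapln1a belongs to the list, but its brightest set is among those that did not pass. 26 of the 35 lay below 0, beside 39.3% of all genes, and the median difference was -0.44 against 0.04. At an unadjusted p under 0.05 there were 12 lower and 2 higher, beside 2.7% and 4.75% of all genes. The share below 0 over all genes takes in dim ones. Over the dimmer 7751 probe sets the median difference was 0.06, and over the brighter 7751 it was 0.02. In 12 of the 35 every TCDD array lay below every vehicle array, beside 3.31% of all genes. Their summed intensity was 38861, 39582 and 48574 on TCDD arrays, against 50306, 67011 and 74029 on vehicle arrays, and vehicle array B was the lowest of its group. Members that did not pass included vcanb, a large proteoglycan, at -1.64 ± 0.41 (adjusted p = 0.18), and the fibrillar collagen gene col11a1a at -1.42 ± 0.35 (0.18). Left out in turn, single arrays moved the list's median between -0.51 and -0.28. Without vehicle array B 6 members fell, where 55 of all 15502 probe sets did. Without vehicle array E 1 member fell, where 6 of all probe sets did.

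Among 20 genes that process the matrix, 1 rose and none fell, beside 0.216% and 0.0796% of all genes, and the list's median was -0.38. Without vehicle array B 5 of the 20 fell and 1 rose, where 55 and 43 of all 15502 probe sets did. The rise was mmp13a, a collagenase induced in wounded fin, with 11.69, 12.90 and 12.13 on TCDD arrays, against 11.29, 9.09 and 8.88 on vehicle arrays. The lowest TCDD array, A, lay just above vehicle array B, and the other vehicle arrays lay well below. The difference was 2.48 ± 0.46 (limma adjusted p = 0.038), lost under the replicate block (0.11) and with 16 of the 18 arrays left out in turn (up to 0.23). 15 of the 20 lay below 0, beside 39.3% of all genes, while the gelatinase mmp9 (0.62) and the inhibitor timp2b (0.63) lay above it without passing. At an unadjusted p under 0.05 there were 8 lower and 1 higher, beside 2.7% and 4.75% of all genes. In 5 of the 20 every TCDD array lay below every vehicle array, beside 3.31% of all genes, and in 1 above, beside 7.9%. pcolce2b, which enhances the trimming of procollagen, had 5.73, 5.37 and 6.15 with TCDD and 6.61, 7.44 and 8.21 with vehicle. Its difference of -1.67 ± 0.34 did not pass (0.062), but passed under the replicate block (0.029). loxl2b, which cross-links collagen, differed by -1.24 ± 0.27 (0.10), and mmp2, another gelatinase, by -0.48 ± 0.15 (0.35).

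In the bone and cartilage list, which shares sparc with the structural matrix list, 2 of 20 genes fell (sox9b and sparc) and none rose. Over all genes the shares were 0.0796% and 0.216%, and 10 of the 20 had a level under 5 on these arrays. The list's median was -0.13, and without vehicle array E none of the 20 passed. runx2a, a transcription factor of osteoblasts, had 8.75, 8.31 and 8.56 with TCDD and 9.03, 9.45 and 9.43 with vehicle, a difference of -0.77 ± 0.24 that did not pass (limma adjusted p = 0.36). The hypertrophic cartilage collagen col10a1a differed by -1.65 ± 0.48 (0.29) and its groups overlapped. enam, a gene of the enamel matrix that is not in this list, had 4.82, 2.70 and 4.096 with TCDD and 4.91, 8.61 and 6.38 with vehicle, a difference of -2.76 ± 0.69 (0.18). hsd11b2, which inactivates cortisol, belongs to no list but was among the largest negative differences, at -2.18 ± 0.68, which did not pass (0.35) except under the replicate block (0.047).

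In a list of 27 neutrophil and macrophage genes 2 fell, grna.1 and c1qc, beside 0.0796% of all genes. grna.1, a granulin, had levels of 9.21, 9.13 and 8.96 on TCDD arrays, against 10.48, 10.21 and 10.74 on vehicle arrays. It fell by 1.38 ± 0.20 (limma adjusted p = 0.0075), a call lost under the replicate block (0.055) and without vehicle array E (0.054). c1qc, a chain of complement C1q made by macrophages, had 7.57, 7.97 and 7.31 with TCDD and 8.86, 9.12 and 8.75 with vehicle, and fell by 1.30 ± 0.25 (0.041), a call that 12 of the 18 arrays each ended when left out (up to 0.25).

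The macrophage scavenger receptor marco had 6.01, 5.76 and 6.35 with TCDD, against 7.53, 8.80 and 7.77 with vehicle. Its difference of -2.00 ± 0.39 just missed the threshold (limma adjusted p = 0.052) and passed under the replicate block (0.0069). acp5a, the tartrate-resistant acid phosphatase of osteoclasts and some macrophages, had 4.73, 4.76 and 5.28 with TCDD and 6.71, 8.45 and 6.48 with vehicle. Its difference was -2.29 ± 0.46 (0.058), and 0.0013 was its adjusted p under the block. spi1b, a transcription factor of myeloid cells, differed by -0.68 ± 0.23 (0.40).

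The 1 member of the 27 that rose was the probe set annotated mpx described above, beside 0.216% of all genes. 19 of the 27 lay below 0, beside 39.3% of all genes, and others, such as the lysosomal protease gene ctss1 (0.39), lay above it. The median difference was -0.25, or -0.48 under the replicate block and -0.51 without vehicle array E. It was -0.17 without vehicle array B and -0.09 without both arrays of letter D. At an unadjusted p under 0.05 there were 7 lower and 2 higher, beside 2.7% and 4.75% of all genes. Without vehicle array E none fell, and none fell without both arrays of letter D. The summed intensity of the list was 49554, 57558 and 53720 on TCDD arrays, against 66022, 62844 and 47184 on vehicle arrays, so that the sums overlapped through vehicle array E. That array was low for wound genes as well. Over 33 genes of inflammation and acute wounding the sums were 76590, 88341 and 70896 with TCDD, against 82092, 83653 and 42264 with vehicle. In that list mmp13a alone passed, beside 0.216% of all genes that rose. The list's median difference was 0.21 with all arrays but -0.14 without vehicle array E and -0.19 under the replicate block. cebpb, a transcription factor of acute inflammation, belongs to both lists and showed the pattern. It had 12.36, 12.19 and 12.28 on TCDD arrays and 12.24, 12.06 and 10.80 on vehicle arrays (difference 0.57, limma adjusted p = 0.78).

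The listed genes of the epidermis, whose keratins were among the brightest on the arrays, gave no call. The list does not hold col17a1b, the collagen of basal epidermis that fell and is described above. None of 43 passed, none had an unadjusted p under 0.05, and the median difference was -0.01. Their summed intensity was 384865 to 442554 on TCDD arrays and 421030 to 444282 on vehicle arrays. The brighter keratin krt97 had 14.67, 14.72 and 14.87 with TCDD and 14.51, 14.55 and 14.55 with vehicle, a difference of 0.22 ± 0.11 (limma adjusted p = 0.65).

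No cell cycle gene passed. Of 52 measured, 40 lay below 0, beside 39.3% of all genes, dim ones included. At an unadjusted p under 0.05, 4 were lower and none higher, beside 2.7% and 4.75% of all genes, and the median difference was -0.19 at 1 dpa. The groups overlapped in every one of the 52, where 7.9% of all genes were higher and 3.31% lower without overlap. anln, which encodes the cytokinesis protein anillin, had 8.50, 7.84 and 8.13 with TCDD, against 8.36, 9.13 and 9.15 with vehicle, a difference of -0.72 ± 0.25 (limma adjusted p = 0.45). The list's summed intensity was 29254, 22873 and 23771 on TCDD arrays A, B and D, against 24508, 29638 and 32126 on vehicle arrays B, D and E. The sum was lowest on the B array of each group, and lower with TCDD within letter B and within letter D. Under the replicate block the median was -0.14.

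Markers of other cell types that a fin can hold gave no call. Erythrocyte genes summed to 12340, 13213 and 12045 on TCDD arrays, against 7408, 6106 and 12218 on vehicle arrays, and the globin gene hbaa1 differed by 0.75 ± 0.30 (limma adjusted p = 0.55). The sums rest mostly on ca2 and hbaa1, the brightest of the 12 genes, and 7 of the 12 had a level under 5. ca2 had 12.11, 11.93 and 12.92 on vehicle arrays B, D and E. Of 24 skeletal muscle genes 21 had a level under 5. None of 11 vascular, 14 pigment cell, 20 nerve and glia or 6 lymphocyte genes passed. Without overlap between the groups, 2 of the vascular genes and 1 each of the pigment cell, nerve and lymphocyte genes were higher with TCDD. Of the pigment cell genes 1 was lower. Over all genes 7.9% were higher and 3.31% lower without overlap, and counts this small do not stand out from those shares. The vascular receptor kdrl had 8.71, 8.87 and 8.84 with TCDD and 8.62, 8.11 and 8.63 with vehicle, a difference of 0.35 ± 0.16 (0.60). gch2, a pteridine enzyme of pigment cells, had 6.62, 6.27 and 7.24 with TCDD and 7.32, 7.33 and 7.64 with vehicle, a difference of -0.72 ± 0.31 (0.58). No retinoid gene of 23 passed, and the retinoic acid hydroxylase cyp26b1 differed by -0.54 ± 0.15 (0.27) and the synthase aldh1a2 by 0.77 ± 0.30 (0.54). Genes of the unfolded protein response (25), glycolysis (24) and sterol synthesis (11) gave no call, with medians of 0.02, 0.12 and 0.28. Single arrays left out moved the first between -0.15 and 0.13 and the sterol median between 0.05 and 0.44. Above 0 lay 11 of 12 erythrocyte, 19 of 24 muscle, 10 of 11 vascular, 16 of 20 nerve and 9 of 14 pigment genes. So did 3 of 6 lymphocyte, 8 of 23 retinoid, 14 of 25 unfolded protein, 18 of 24 glycolysis and 11 of 11 sterol genes. Over all genes 39.3% lay below 0.

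**Figure D4:**
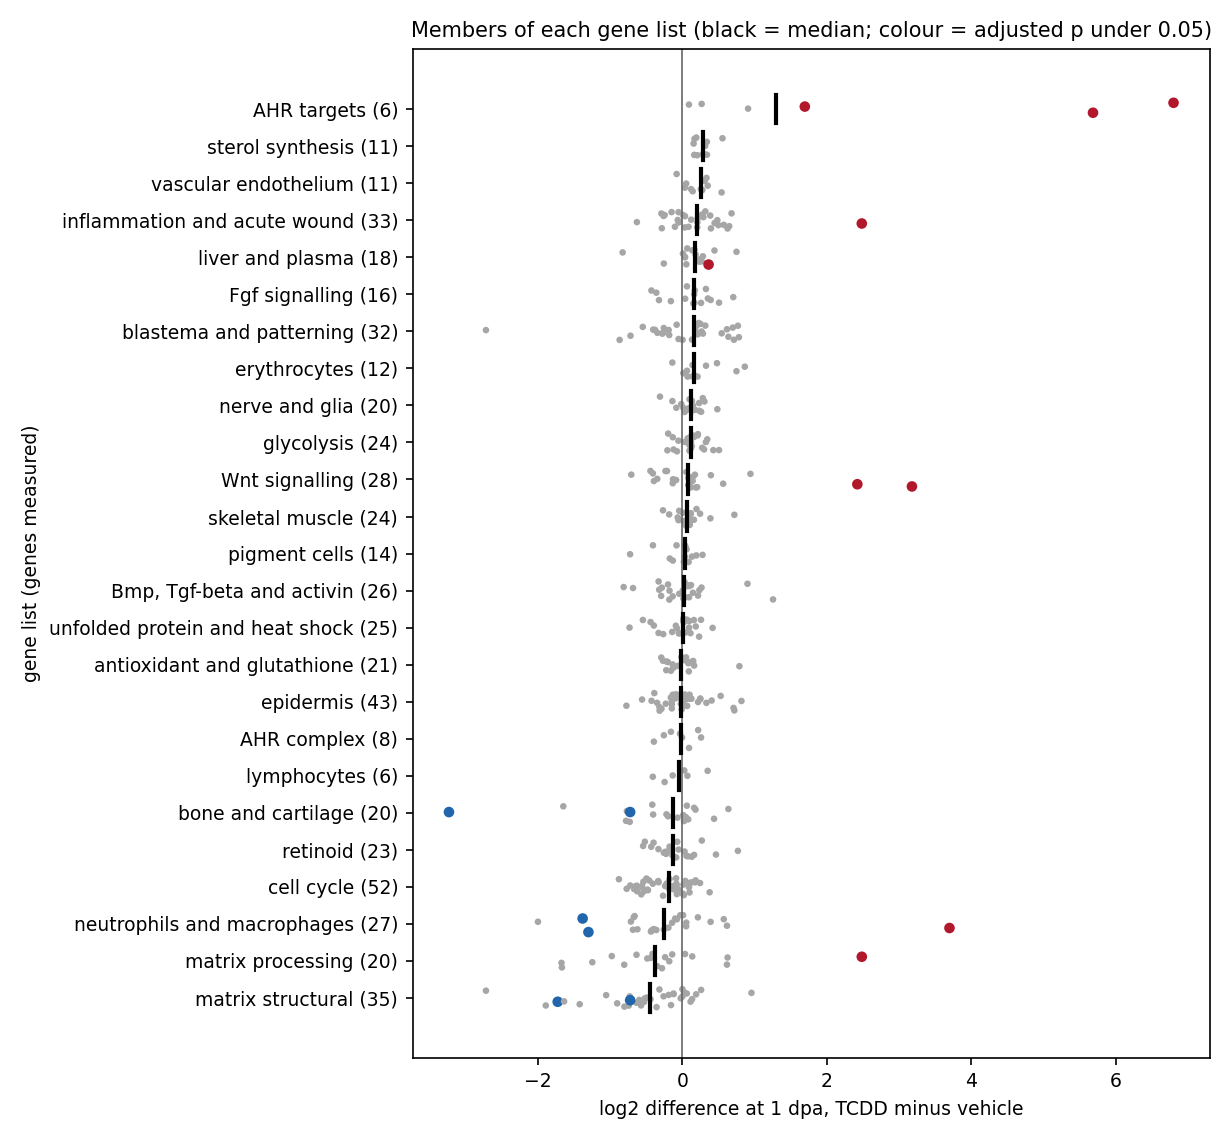
Difference at 1 dpa (TCDD minus vehicle, log2) of every measured member of 25 gene lists, 1 point per gene, with list sizes in brackets, red for rises, blue for falls and black bars for medians. The AHR targets have the highest median, 1.30, and the structural matrix genes the lowest, -0.44, and most lists are centred near 0.

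A share of the rises came from dim probe sets. In 8 of the 25 both group means were under a level of 5, and their differences were 0.27 to 0.60. They included prss1, a trypsin, at 0.58, cyp2k6, a liver P450, at 0.36, pth3r, a parathyroid hormone receptor, at 0.32 and tatdn2, a putative nuclease, at 0.27. Of these, cyp2k6 passed whichever array was left out, and the others did not (adjusted p up to 0.18). Without both arrays of letter D cyp2k6 did not pass. Under the replicate block pth3r (0.13) and tatdn2 (0.21) did not pass. The dim end of the TCDD arrays was raised as a whole. The lower quartile of intensity was 15.0, 14.4 and 15.2 on TCDD arrays, against 14.0, 13.9 and 14.2 on vehicle arrays, and the groups did not overlap. Among the dimmer 7751 probe sets 996 were higher on every TCDD array than on any vehicle array and 146 lower, and among the brighter 7751 there were 362 higher and 321 lower. In percent of all 15502, 8.76% were higher and 3.01% lower without overlap. None of the 8 dim rises passed at 3 or 5 dpa.

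Most of the brighter rises at 1 dpa were present at the later days too. Of the 17 rises with a level of 5 or more, 16 also rose at 3 dpa and 13 at 5 dpa, where 1.11% and 1.64% of all probe sets passed in either direction. The tests of all days share 1 estimate of spread per probe set, so that a pass at 1 dpa makes a later pass more likely. cyp1a differed by 6.80 at 1 dpa, 7.06 at 3 dpa and 5.34 at 5 dpa, and rspo1 by 3.18, 4.33 and 3.91. Of the 12 falls with that level, 7 also fell at 3 dpa and 5 at 5 dpa, and sox9b differed by -3.23, -3.82 and -3.42. grna.1 differed by -1.38, -0.16 and -0.70, and ndnf by 1.46, 0.85 and 0.16.

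**Figure D5:**
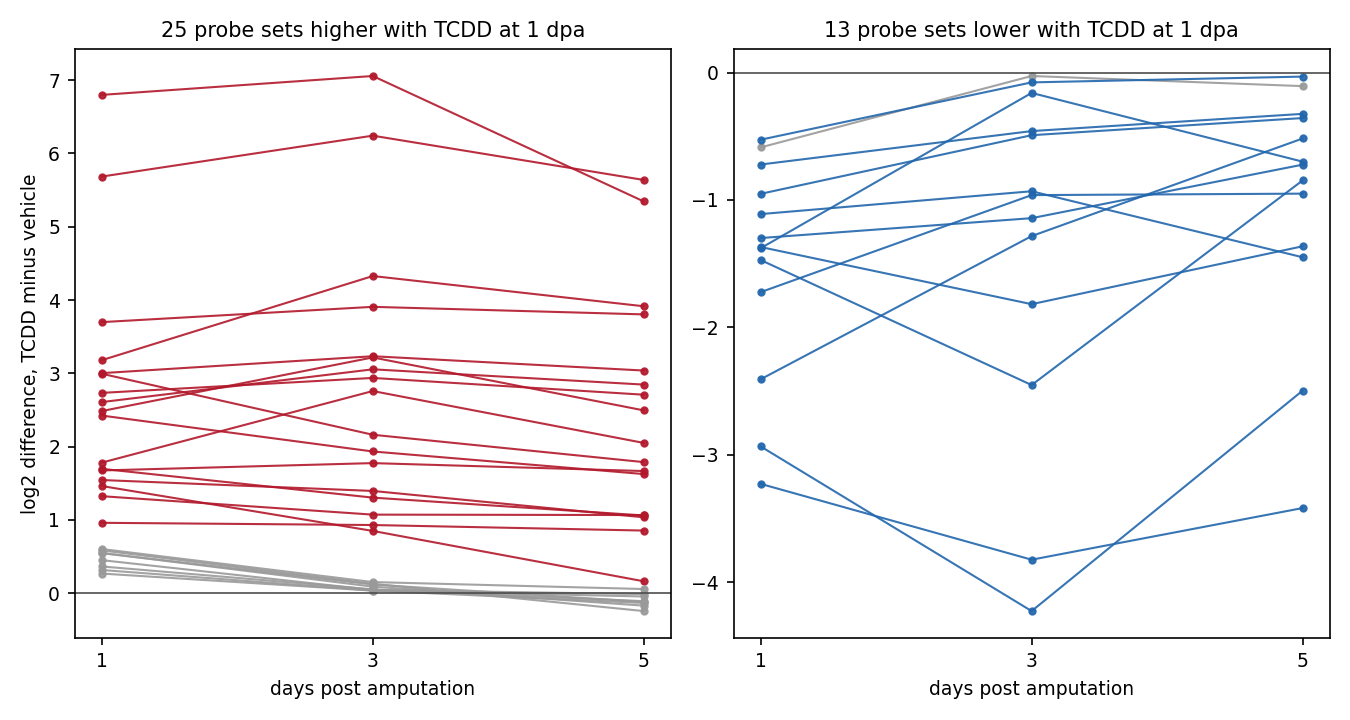
TCDD effect (TCDD minus vehicle, log2) at 1, 3 and 5 dpa of the 25 probe sets that rose at 1 dpa (left) and the 13 that fell (right), 1 line each, grey where both group means at 1 dpa were under a level of 5. The line of cyp1a runs through 6.80, 7.06 and 5.34, and the grey lines, at 0.27 to 0.60 on the left and -0.59 on the right at 1 dpa, lie near 0 later.

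A direct test of whether the effect at 1 dpa differed from the mean effect of the later days passed for 3 of 15502 probe sets (0.0194%), while 1357 had an unadjusted p under 0.05. gpx1b, a glutathione peroxidase, did not pass at 1 dpa, with 6.70, 6.997 and 6.64 on TCDD arrays and 6.78, 6.65 and 6.63 on vehicle arrays. Its TCDD effect was 0.09 at 1 dpa, 1.32 at 3 dpa and 1.88 at 5 dpa, and the effect at 1 dpa minus the later mean was -1.51 ± 0.22 (limma adjusted p = 0.047). The unnamed Dr.14133.1.A1_at, the most significant fall at 1 dpa, had 4.56, 4.104 and 4.54 with TCDD, against 6.88, 6.89 and 6.65 with vehicle. Its effect was -2.41 ± 0.17 at 1 dpa, -1.28 at 3 dpa and -0.52 at 5 dpa, a difference between days of -1.51 ± 0.20 (0.031). The third was the dim cyp2k6, at 0.39 (0.049). For ndnf the difference between days did not pass. None of the 3 passed under the replicate block, where each had an adjusted p of 0.12.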

How the data were processed

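Transcript levels were measured on Affymetrix zebrafish arrays, 1 per pool of 10 fish. The authors deposited linear intensity for each probe set. GCRMA is the tool named in the submitters' processing notes, and neither its version nor its settings were given in the sources used here. No scanner file was read here. The arrays hold 15617 probe sets, and the 115 that are Affymetrix controls entered no test. Symbols are those of the platform annotation, brought up to date in RefSeq by Entrez ID. A single symbol was found for 10795 probe sets (10711 of these in RefSeq), several for 135 and none for 4572. In list counts each of 8793 genes stands as its brightest probe set over all arrays. Median intensity was 75.1 to 80.5 on the arrays of 1 dpa, and the number of arrays limits the precision.

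From the deposited values, log2(intensity + 1) was analysed, which understates differences of dim probe sets. limma 3.58.1 in R 4.3.3 (lmFit, contrasts.fit, eBayes with a trend) fitted 6 group means over 18 arrays, with 12 residual degrees of freedom. The contrasts were TCDD minus vehicle at 1 dpa, and that effect minus the mean effect at 3 and 5 dpa. Adjusted p-values are limma's, two-sided, by Benjamini-Hochberg over 15502 probe sets. Tables and figures were made with Python 3.11.15 and matplotlib 3.10.9. The model was tested on simulated data in which 200 probe sets were changed.

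The labels do not say that pools sharing a letter share fish, but their deviations from the group means went together: over 7 same-day pairs of 1 letter r was 0.20 to 0.70, and 2 of 20 pairs of different letters exceeded 0.1. The main fit, which gave the counts, errors and adjusted p-values above unless the block is named, ignored the letters. An alternative fit therefore took the letter as a block, with 1 term per letter shared by all days. Its value stands with each named gene whose call it changed. Whether a letter marks the same thing on different days was not tested. The block on the 6 arrays of 1 dpa alone lost 16 of the 38 calls. Among these were zdhhc2, sparc, c1qc, col17a1b, cyp2k6 and prss1, which passed under the block over all days. The 25 gene lists, the comparison and the alternatives were chosen with earlier results of these data known. Genes named were drawn from the called probe sets with a gene symbol and the other sets of those genes, the measured AHR targets and AHR complex genes, up to 5 members of each other list by smallest p, the 10 largest rises and 10 largest falls by size (at least 1 log2 unit, no overlap, level of 5 or more), and probe sets whose effect differed between days; not all of these are described. ctss1 and mmp9 were named after their values were seen. Alternatives were a pseudocount of 16, testing only probe sets above the median level, quantile normalization, median centring, a constant prior, the replicate block, fewer arrays, and each array left out.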

Additional observations from a re-analysis of the deposited data

Results flagged for a closer look

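For 3 probe sets the TCDD effect at 1 dpa differed from the mean effect at 3 and 5 dpa in a direct test with limma over 15502 probe sets. For gpx1b the difference between days was -1.51 (adjusted p = 0.047). Its levels on TCDD arrays averaged 6.78 ± 0.19, 7.72 ± 0.41 and 8.58 ± 0.09 at 1, 3 and 5 dpa, against 6.69 ± 0.08, 6.40 ± 0.17 and 6.69 ± 0.13 on vehicle arrays (SD, n = 3 each). Leaving out 14 of the 18 arrays, 1 at a time, ended the call, with an adjusted p of up to 0.19.

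For Dr.14133.1.A1_at, which has no gene name, the difference between days was -1.51 (limma adjusted p = 0.031). Its levels averaged 4.40 ± 0.26, 3.21 ± 0.17 and 3.34 ± 0.22 with TCDD, against 6.81 ± 0.13, 4.50 ± 0.04 and 3.86 ± 0.29 with vehicle at 1, 3 and 5 dpa (SD, n = 3 each). Its vehicle level was highest at 1 dpa. Leaving out 9 of the 18 arrays, 1 at a time, ended the call (up to 0.17).

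For cyp2k6 the difference between days was 0.39 (limma adjusted p = 0.049). Its levels were dim throughout, between 2.46 and 2.98 on every array, and 15 of the 18 arrays each ended the call when left out (up to 0.25).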

How the results depend on the processing

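The count of probe sets changed at 1 dpa was 38. It was 27 with a constant prior, 30 with median centring, 33 with quantile normalization, 37 with a pseudocount of 16, 28 when only probe sets above the median level were tested and 45 with the replicate block (17 higher, 28 lower), of which 24 were among the 38. It was 69 with only the 6 arrays of 1 dpa and a replicate block (26 higher, 43 lower), 22 of them among the 38. It fell to 0 with only those 6 arrays and no block, with 883 at an unadjusted p under 0.05, and to 4 with only letters B and D at 1 dpa. These fits hold fewer arrays and fewer degrees of freedom. Chosen after seeing the data, leaving out both arrays of letter D gave 6 and both of letter B gave 51. With 1 array of 1 dpa left out the count ran from 11 (vehicle D) to 98 (vehicle B). No called probe set changed sign under any of these. The probe sets whose TCDD effect differed at 1 dpa numbered 3, and 0 with the replicate block, 1 with median centring, 0 without both letter B arrays, 0 without both letter D arrays, and 0 to 7 with single arrays left out (1357 at an unadjusted p under 0.05 with all arrays). The cause of these changes was not tested. Under the replicate block 14 of the 38 were lost and 4 rises and 17 falls were gained. Of values that did not pass, nqo1 (0.27) ran from -0.054 to 0.64 and gpx1b (0.09) from -0.018 to 0.16 as single arrays of 1 dpa were left out.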
